A study of Homo sapiens with 8 samples.

Results

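The response to amino acid shortage and to stress of the endoplasmic reticulum (ER) was followed at the level of mRNA in human prostate cancer cells after activation of Notch1. A list of 35 of its genes comprised stress transcription factors, targets of the factors ATF4 and CHOP, ER chaperones and proteins of ER-associated degradation. A gene was measured where the array annotation gave a probe set its symbol alone, and the probe set with the highest mean over the arrays stood for the gene. By this rule 33 of the 35 genes were measured, of 8226 genes in all. HSP90B1 had only a probe set shared with another symbol and SYVN1 had no annotated probe set. The study hybridised 8 Affymetrix U95Av2 arrays in 4 groups of 2, named LNCaP Notch1, LNCaP GFP, PC3 Notch1 and PC3 GFP. The Notch1 groups acutely overexpressed the activated form of the receptor, which signals without a ligand, and the controls expressed green fluorescent protein (GFP). LNCaP is an androgen-responsive line from a lymph node metastasis, and PC3 is an androgen-independent line from a bone metastasis. The sources used here give neither the vector nor the time of expression for the arrays, and each type of tumor is represented by a single established line. The methods describe a pair of chips per sample, so p-values measure the spread between arrays, which may be technical. RNA came from whole cultures, in which fewer expressing cells and less RNA per cell cannot be told apart.

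Cells that lack amino acids or accumulate unfolded proteins in the ER phosphorylate the initiation factor eIF2, which slows general translation but favors that of the transcription factor ATF4. ATF4 and its C/EBP partners induce genes for amino acid synthesis and uptake, and, when stress persists, DDIT3, which encodes CHOP. In parallel, the ER sensors ATF6 and IRE1 (which splices XBP1 mRNA) induce chaperones that fold proteins in the ER and proteins that remove misfolded ones. Secretory cells such as prostate epithelium rely on these pathways for the proteins they export. The arrays measured total mRNA, and neither splicing of XBP1 nor translation of ATF4 was read.

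The factors of the response recognise short elements in the promoters of their targets. The 250 bases before the start site of each gene, from RefSeq on GRCh38.p14, were searched on both strands for 5 elements, and 28 of the 33 genes had a promoter in the table. The ER stress response element bound by ATF6 with NF-Y (ERSE, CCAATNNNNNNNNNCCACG) occurred in 4 genes, all of them chaperones (HSPA5, PDIA6, CALR and CANX), and in 0.074% of 35116 promoters. Its second form (ERSE-II, ATTGGNCCACG) occurred in HERPUD1 and HYOU1 and in 0.0513% of promoters. The amino acid response element to which ATF4 and C/EBP proteins bind (TGATGNAA) occurred in CEBPG and HERPUD1 and in 3.14% of promoters. TGACGTGG, the element of XBP1 and ATF6 (UPRE), occurred in HYOU1, where it overlaps an ERSE-II, and in 0.612% of promoters. The cyclic AMP response element TGACGTCA occurred in PPP1R15A and in 1.65% of promoters. These are matches of letters, and binding was not measured. A single annotated start site was used for each gene. Elements farther away or before another start site were not searched, so a gene without a match may still hold the element. The stretches of 7 promoters are given 5′ to 3′ on the strand of the gene, with the elements in capitals, to show the forms of the elements in chaperone, degradation and C/EBP genes.
HSPA5, chr9:125241376-125241424, minus strand: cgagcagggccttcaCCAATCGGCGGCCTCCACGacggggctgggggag
CANX, chr5:179698763-179698811, plus strand: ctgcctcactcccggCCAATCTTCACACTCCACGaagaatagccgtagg
PDIA6, chr2:10812838-10812886, minus strand: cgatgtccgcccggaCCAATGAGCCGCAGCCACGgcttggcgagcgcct
CALR, chr19:12938369-12938417, plus strand: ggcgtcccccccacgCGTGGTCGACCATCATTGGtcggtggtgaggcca
HERPUD1, chr16:56931951-56932050, plus strand: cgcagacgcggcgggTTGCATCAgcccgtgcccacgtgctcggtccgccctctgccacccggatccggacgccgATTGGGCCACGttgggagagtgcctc
HYOU1, chr11:119057259-119057408, minus strand: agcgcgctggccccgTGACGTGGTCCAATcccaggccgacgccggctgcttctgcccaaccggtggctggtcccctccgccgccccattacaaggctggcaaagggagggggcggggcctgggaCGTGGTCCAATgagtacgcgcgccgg
CEBPG, chr19:33374056-33374093, plus strand: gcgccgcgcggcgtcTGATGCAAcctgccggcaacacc

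In CALR the element is read on the opposite strand, as are both ERSE-II matches of HYOU1 and the amino acid response element of HERPUD1. The ERSE lay 66, 189, 86 and 225 bases before the start site of HSPA5, CANX, PDIA6 and CALR (from the base of the match farthest from the start). HERPUD1 was the only one of the 28 promoters searched that held both an ER stress element and an amino acid response element.

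The deposited values are log2 expression values, and a difference of 1 is a 2-fold change. Arrays of a group correlated at 0.995 to 0.998 across probe sets. HES1, a direct Notch target used as the check on the labels and chosen outside the naming rule, stood at 11.22 and 11.23 on the LNCaP Notch1 arrays, against 8.41 and 8.47 with GFP, and at 10.51 and 10.61 on the PC3 Notch1 arrays, against 7.92 and 8.08 with GFP. All 5 measured LNCaP identity genes were higher in LNCaP GFP than in PC3 GFP, and all 8 PC3 identity genes were lower. Of all probe sets, 40.3% were called higher and 18.5% lower in this comparison. The calls of HOXB13 (0.42) and EGFR (-0.43) were lost in 3 and 6 of 15 alternatives, that of HOXB13 after median centring among them. With Notch1, 4 of the 5 LNCaP genes fell in LNCaP (KLK2, KLK3, TMPRSS2 and ACP3) and 5 of the 8 PC3 genes rose in PC3 (CD44, CAV1, CAV2, PLAU and S100A2). Of all probe sets, 9.32% were called lower in LNCaP and 4.19% higher in PC3. The PC3 identity gene EGFR was called higher in LNCaP (0.56, adjusted p = 0.0336), a call lost in 6 of 16 alternatives. The PC3 calls of CAV1 and CAV2 were lost in 8 and 2 of 16, and the LNCaP call of KLK3 in 1. None of the 5 leukocyte and 6 fibroblast or muscle genes measured was called for Notch1 against GFP in either line. Between the GFP controls, LUM (5.44) and COL3A1 (0.52) were called higher in LNCaP, and COL1A2 (-3.91) and CD68 (-1.10) lower. This COL3A1 call was lost after median centring, after quantile normalization and with values under log2 5 raised to 5. The LUM difference ranged from 1.39 to 5.51 over the alternatives. COL3A1 was also called between the effects of the lines (0.58, adjusted p = 0.0492), a call lost in 11 of 14 alternatives. The 3′ probe set of GAPDH exceeded the 5′ one, a measure that grows with degradation of RNA, by 0.40 and 0.36 on the LNCaP Notch1 arrays, against 0.57 and 0.55 with GFP, and -0.04 and -0.08 on the PC3 Notch1 arrays, against 0.07 and -0.02 with GFP. For ACTB the same measure was 0.38 and 0.52 on the LNCaP Notch1 arrays, against 0.58 and 0.67 with GFP. On the PC3 Notch1 arrays it was 0.28 and 0.39, against 0.32 and 0.43 with GFP. The part of identity genes and RNA integrity in the differences below was not tested.

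In LNCaP cells, 13 of the 33 genes fell with Notch1 and 1 rose. The falls included those of the degradation protein HERPUD1 (2.67-fold), the factors DDIT3 (2.26-fold) and CEBPB (2.18-fold) and the amino acid transporter SLC7A1 (1.89-fold). In PC3 cells, 9 rose and 0 fell, with the ER chaperone HSPA5 (1.93-fold) and the factor ATF3 (1.91-fold) foremost. A gene was called at a Benjamini-Hochberg adjusted p under 0.05 over the 12558 probe sets tested with limma. Of all probe sets, 9.32% were called lower and 8.01% higher in LNCaP, and 4.19% were called higher and 2.01% lower in PC3. The median log2 difference of the 33 genes was -0.32 in LNCaP and 0.37 in PC3, beside 0.04 and -0.08 over all probe sets. A set of 5 genes was called in both directions, lower in LNCaP and higher in PC3 (ATF3, CEBPB, SLC7A1, SLC7A5 and HERPUD1), 1 was higher in both (SEL1L), and 16 were called in neither line.

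The effect in LNCaP minus the effect in PC3 was tested for each gene and was called negative for 17 of the 33 genes and positive for 0, where 7.67% of all probe sets were called negative and 6.49% positive. By sign alone, 20 of the 33 genes (60.6%) were lower in LNCaP and higher in PC3, as were 18.8% of all 8226 genes. Both LNCaP Notch1 arrays lay below both GFP arrays for 25 of the 33 genes (24.1% of all probe sets), and both PC3 Notch1 arrays lay above both GFP arrays for 22 (20.6% of all probe sets). Across the 33 genes the differences in the 2 lines, which share no array, correlated at r = -0.187 (Spearman rho = -0.194), against r = 0.171 (rho = -0.013) across all 8226 genes. Genes are not independent replicates, and these correlations are descriptions. Without single arrays, the 17 genes called negative became 11 without PC3 Notch1 replicate 2 and 11 without LNCaP GFP replicate 2, and the 9 genes called in PC3 became 4 without PC3 GFP replicate 1, 3 without PC3 Notch1 replicate 1 and 2 without PC3 Notch1 replicate 2. With the replicate number as a block in the model, 16 genes were called higher in PC3, all 9 of the genes above among them, while 5 were called in a model of the 4 PC3 arrays alone and 2 with values under log2 5 raised to 5.

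Among the 9 stress transcription factors, 8 fell in LNCaP and 2 rose in PC3, and 7 differed between the lines. CEBPB, a C/EBP factor of stress and inflammatory responses, had values of 8.77 and 8.52 on the LNCaP Notch1 arrays, against 9.78 and 9.77 with GFP, and 10.64 and 10.71 on the PC3 Notch1 arrays, against 9.74 and 9.92 with GFP. The GFP arrays of the lines stood close to each other, and the Notch1 arrays lay below them in LNCaP and above them in PC3. CEBPB fell 2.18-fold in LNCaP (log2 difference -1.13, SE 0.13, adjusted p = 0.000168) and rose 1.80-fold in PC3 (log2 difference 0.85, SE 0.13, adjusted p = 0.00341). The lines differed by -1.97 (SE 0.18, adjusted p = 9.78e-05).

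DDIT3 encodes CHOP, a C/EBP-like factor that promotes cell death when ER stress persists. It was at 8.89 and 8.71 on the LNCaP Notch1 arrays, against 10.18 and 9.77 with GFP, and 10.26 and 10.11 on the PC3 Notch1 arrays, against 9.73 and 9.37 with GFP. Both Notch1 arrays lay below the GFP arrays in LNCaP and above them in PC3, and in PC3 the GFP arrays lay further apart than the Notch1 arrays. DDIT3 fell 2.26-fold in LNCaP (log2 difference -1.18, SE 0.17, adjusted p = 0.000746). In PC3 the difference of 0.63 did not pass the test (SE 0.17, adjusted p = 0.054), and passed it without LNCaP GFP replicates 1 or 2 or PC3 GFP replicate 1 (log2 difference 0.63 to 0.81, adjusted p = 0.0328 to 0.0414) and with the replicate block (adjusted p = 0.00756). The difference between lines was -1.81 (adjusted p = 0.000853). The PC3 difference of DDIT3 passed the test in 5 of 8 alternatives that left no single array out, the replicate block among them (adjusted p = 0.00756 to 0.0464). A second DDIT3 probe set gave -1.13 in LNCaP (adjusted p = 0.000799) and 0.60 in PC3 (adjusted p = 0.0551).

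ATF3, an early stress factor induced by ATF4, was at 6.14 and 6.08 on the LNCaP Notch1 arrays, against 6.78 and 7.0 with GFP, and 5.37 and 5.29 on the PC3 Notch1 arrays, against 4.37 and 4.43 with GFP. It was the factor with the largest gap between the lines at the start, and the Notch1 arrays of the lines lay closer together than the GFP arrays. ATF3 fell 1.72-fold in LNCaP (log2 difference -0.78, SE 0.12, adjusted p = 0.00119) and rose 1.91-fold in PC3 (log2 difference 0.93, SE 0.12, adjusted p = 0.00108), a difference of -1.71 (adjusted p = 0.000139). Both PC3 GFP values lay under log2 5, a level near the array background, and with values under 5 raised to 5 the PC3 difference was 0.33 (adjusted p = 0.143). The calls of CEBPB and ATF3 in both lines, and that of DDIT3 in LNCaP, passed the test whichever of the 8 arrays was left out.

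CEBPD, a C/EBP factor of acute stress, was at 7.0 and 6.95 on the LNCaP Notch1 arrays, against 7.71 and 7.75 on the LNCaP GFP arrays, and fell in LNCaP (log2 difference -0.76, SE 0.12, adjusted p = 0.00121). Its PC3 values were 7.58 and 7.77 with Notch1, against 7.37 and 7.30 with GFP (0.34, adjusted p = 0.112), and the LNCaP effect minus that in PC3 was -1.10 (adjusted p = 0.00184). CEBPG, the C/EBP partner with which ATF4 forms dimers, was at 9.04 and 8.69 on the LNCaP Notch1 arrays, against 9.57 and 9.47 on the LNCaP GFP arrays (log2 difference -0.65, SE 0.14, adjusted p = 0.01). In PC3 its values were 9.26 and 9.05 on the PC3 Notch1 arrays, against 8.82 and 8.71 on the PC3 GFP arrays (0.39, adjusted p = 0.13, and adjusted p = 0.0443 with the replicate block), and the LNCaP effect minus that in PC3 was -1.05 (adjusted p = 0.00725). Both factors thus had Notch1 arrays below GFP arrays in LNCaP and above them in PC3, with a call in LNCaP alone. The LNCaP call of CEBPG was lost without LNCaP Notch1 replicate 2 or LNCaP GFP replicate 1 (log2 difference -0.60 to -0.48, adjusted p = 0.0573 to 0.0921).

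ATF4, the factor at the head of the amino acid response, was expressed at a high level in all groups, at 11.77 and 11.59 on the LNCaP Notch1 arrays, against 11.93 and 11.97 with GFP, and 11.31 and 11.25 on the PC3 Notch1 arrays, against 10.86 and 10.84 with GFP. The groups did not overlap in either line. The differences were -0.27 in LNCaP (SE 0.12, adjusted p = 0.157) and 0.42 in PC3 (SE 0.12, adjusted p = 0.0583, and 0.0305 with the replicate block), so that neither passed the test. The difference between them passed it (log2 difference -0.69, SE 0.16, adjusted p = 0.0193), but not without LNCaP Notch1 replicate 2, LNCaP GFP replicate 2 or PC3 Notch1 replicates 1 or 2 (log2 difference -0.72 to -0.60, adjusted p = 0.0586 to 0.0798). The PC3 difference of ATF4 passed the test in 5 of 8 alternatives that left no single array out (adjusted p = 0.0147 to 0.045). These were median centring, the filter on dim probe sets, averaged probe sets, the intensity trend and the replicate block. By value the ATF4 differences were smaller than those of CEBPB and DDIT3 in both lines, a contrast that was not tested.

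XBP1, the factor of the IRE1 branch, was at 10.60 and 10.77 on the LNCaP Notch1 arrays, against 11.19 and 11.26 with GFP, and 10.40 and 10.50 on the PC3 Notch1 arrays, against 10.40 and 10.41 with GFP. It fell in LNCaP (log2 difference -0.54, SE 0.12, adjusted p = 0.00876), while its PC3 groups overlapped (0.04, adjusted p = 0.84). A second XBP1 probe set gave -0.58 in LNCaP (adjusted p = 0.0413) and 0.58 in PC3 (adjusted p = 0.0771), and the probe sets thus disagreed in PC3. The difference between lines was -0.58 (adjusted p = 0.0402) for the first probe set and -1.16 (adjusted p = 0.0106) for the second. That of the first was lost without any one array other than PC3 GFP replicate 2 (log2 difference -0.67 to -0.50, adjusted p = 0.0551 to 0.139) and after quantile normalization (-0.44, adjusted p = 0.134). The LNCaP call was lost without LNCaP Notch1 replicate 1 or LNCaP GFP replicate 2 (log2 difference -0.50 to -0.46, adjusted p = 0.0713 to 0.0714).

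ATF5 and ATF6 did not share the opposite pattern. ATF5, a relative of ATF4, was at 6.97 and 6.73 on the LNCaP Notch1 arrays, against 7.49 and 7.40 with GFP, and 6.24 and 6.48 on the PC3 Notch1 arrays, against 6.84 and 6.66 with GFP. ATF6, an ER membrane protein cleaved into a factor under stress, was at 7.52 and 7.59 on the LNCaP Notch1 arrays, against 8.10 and 7.89 with GFP, and 7.57 and 7.73 on the PC3 Notch1 arrays, against 8.07 and 7.90 with GFP. For both genes the Notch1 arrays lay below the GFP arrays in each line. Both fell in LNCaP (ATF5, -0.60, adjusted p = 0.0125, and ATF6, -0.44, adjusted p = 0.0391), and the PC3 values of -0.39 and -0.33 did not pass (adjusted p = 0.12 and 0.144). The differences between lines were -0.21 (95% interval -0.64 to 0.22) and -0.10 (95% interval -0.50 to 0.30). The LNCaP call was lost for ATF5 without LNCaP Notch1 replicate 2 or LNCaP GFP replicate 1 (log2 difference -0.56 to -0.48, adjusted p = 0.0695 to 0.108), and for ATF6 without LNCaP Notch1 replicates 1 or 2, LNCaP GFP replicates 1 or 2 or PC3 Notch1 replicates 1 or 2 (log2 difference -0.54 to -0.33, adjusted p = 0.0577 to 0.242).

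**Figure D1:**
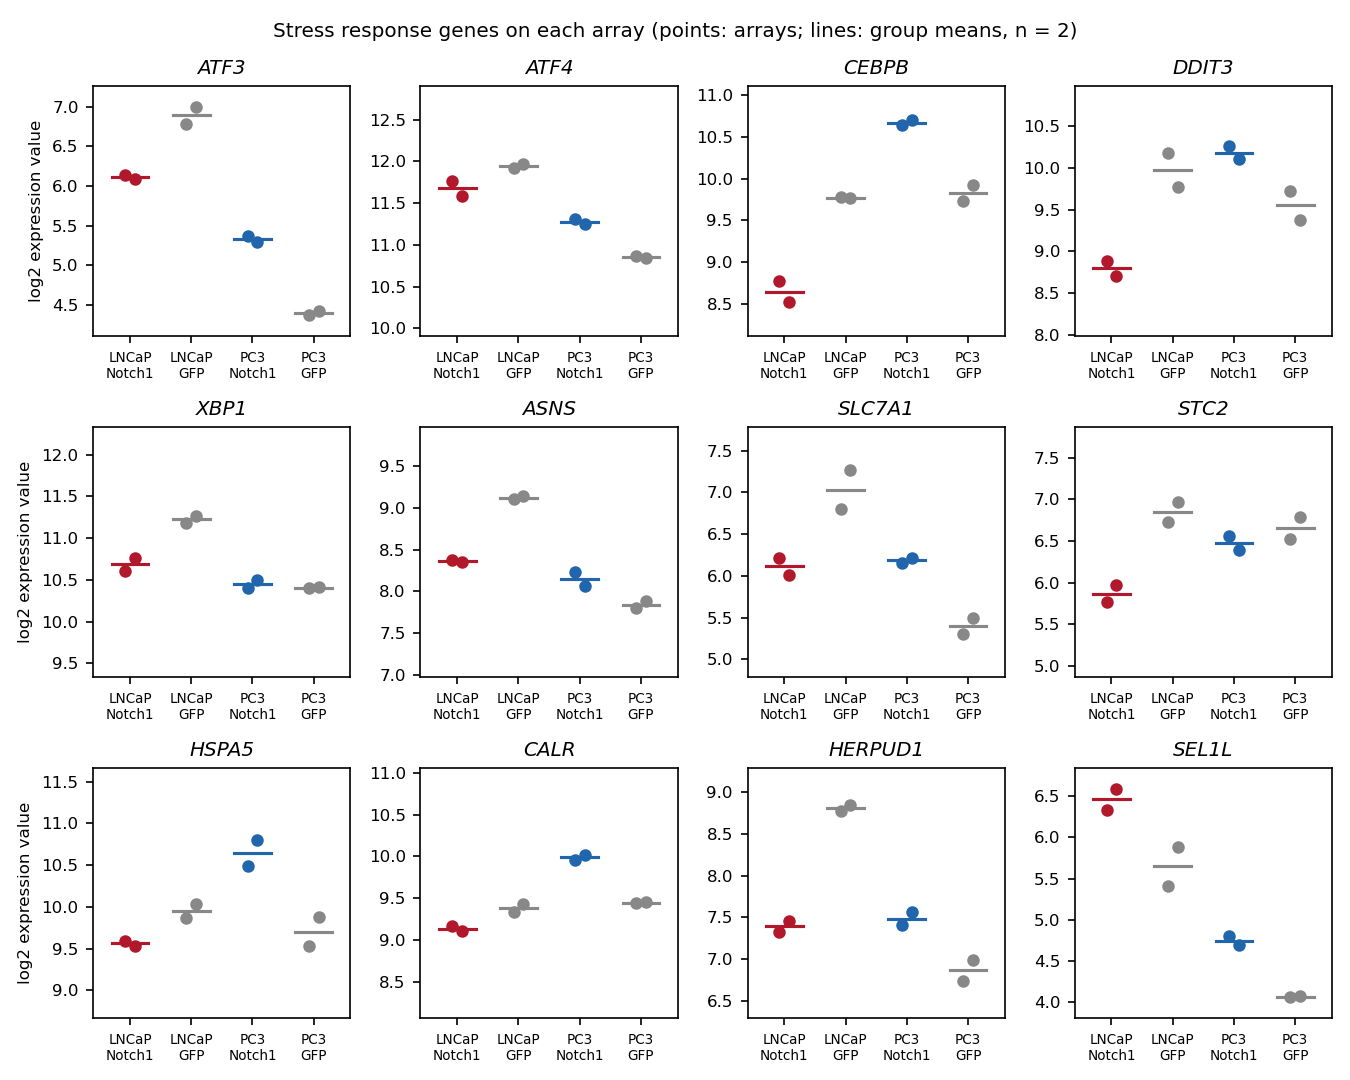
Log2 expression value (y axis, a separate scale for each gene) of 12 stress response genes in the 4 groups (x axis), where each point is an array and each line the mean of a group (n = 2). HERPUD1, CEBPB and ATF3 lay lower with Notch1 in LNCaP (differences of -1.42, -1.13 and -0.78) and higher with Notch1 in PC3 (0.62, 0.85 and 0.93), and SEL1L lay higher in both (0.81 and 0.68).

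Of the 12 genes listed as targets of ATF4 and CHOP, 4 fell in LNCaP and 2 rose in PC3, and 5 differed between the lines. SLC7A1, the carrier of arginine and lysine, was at 6.21 and 6.01 on the LNCaP Notch1 arrays, against 6.80 and 7.27 with GFP, and 6.16 and 6.21 on the PC3 Notch1 arrays, against 5.30 and 5.50 with GFP. The Notch1 arrays of both lines overlapped each other, between the GFP arrays of LNCaP above and those of PC3 below. SLC7A1 fell 1.89-fold in LNCaP (log2 difference -0.92, SE 0.16, adjusted p = 0.00264) and rose 1.73-fold in PC3 (log2 difference 0.79, SE 0.16, adjusted p = 0.0182), a difference of -1.71 (adjusted p = 0.000935). The PC3 call was lost without PC3 Notch1 replicates 1 or 2 or PC3 GFP replicate 1 (log2 difference 0.69 to 0.82, adjusted p = 0.101 to 0.13), and a second, dimmer SLC7A1 probe set gave 0.12 in LNCaP and 0.19 in PC3 and was not called.

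SLC7A5, the light chain of the carrier for large neutral amino acids, was at 6.98 and 7.14 on the LNCaP Notch1 arrays, against 7.59 and 7.65 with GFP, and 9.82 and 9.98 on the PC3 Notch1 arrays, against 9.35 and 9.47 with GFP. It was the target with the largest excess in PC3, and its groups did not overlap in either line. SLC7A5 fell in LNCaP (log2 difference -0.56, SE 0.12, adjusted p = 0.00874) and rose in PC3 (log2 difference 0.49, SE 0.12, adjusted p = 0.0407), a difference of -1.05 (adjusted p = 0.00273). The PC3 call was lost without any one array other than PC3 GFP replicate 2 (log2 difference 0.41 to 0.57, adjusted p = 0.055 to 0.218), and the LNCaP call without LNCaP Notch1 replicate 1 or LNCaP GFP replicate 2 (log2 difference -0.53 to -0.48, adjusted p = 0.0623 to 0.072). Its heavy chain SLC3A2 was not called in LNCaP (0.14, adjusted p = 0.498) or PC3 (-0.10, adjusted p = 0.623), nor was SLC7A11, the cystine carrier that shares that chain (0.05, adjusted p = 0.829 and 0.01, adjusted p = 0.95).

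ASNS, asparagine synthetase, was at 8.38 and 8.36 on the LNCaP Notch1 arrays, against 9.11 and 9.14 with GFP, and 8.23 and 8.06 on the PC3 Notch1 arrays, against 7.80 and 7.88 with GFP. It fell 1.69-fold in LNCaP (log2 difference -0.75, SE 0.12, adjusted p = 0.00115), with LNCaP Notch1 arrays that lay between the GFP arrays of the lines. In PC3 the difference was 0.30 (adjusted p = 0.141), and between the lines -1.06 (adjusted p = 0.00206). MTHFD2, a mitochondrial enzyme of folate metabolism, was at 9.76 and 9.81 on the LNCaP Notch1 arrays, against 9.91 and 10.30 with GFP, and 10.94 and 11.19 on the PC3 Notch1 arrays, against 10.20 and 10.62 with GFP. Neither line passed the test (-0.32, adjusted p = 0.267 in LNCaP and 0.65, adjusted p = 0.0564 in PC3, in PC3 with adjusted p = 0.00997 under the replicate block), while the difference between lines did (-0.97, adjusted p = 0.027). That call was lost without LNCaP Notch1 replicates 1 or 2, LNCaP GFP replicate 2, PC3 Notch1 replicate 2 or PC3 GFP replicate 1 (log2 difference -0.99 to -0.76, adjusted p = 0.0678 to 0.107) and after quantile normalization (-0.79, adjusted p = 0.0654).

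STC2, a secreted glycoprotein induced by ER stress, was at 5.77 and 5.97 on the LNCaP Notch1 arrays, against 6.73 and 6.96 with GFP, and 6.56 and 6.39 on the PC3 Notch1 arrays, against 6.53 and 6.78 with GFP. The PC3 groups overlapped, and both LNCaP Notch1 arrays lay below all other arrays. STC2 fell 1.97-fold in LNCaP (log2 difference -0.98, SE 0.14, adjusted p = 0.000912) and was at -0.18 (adjusted p = 0.448) in PC3. The difference between lines of -0.80 (adjusted p = 0.0267) was lost without LNCaP Notch1 replicate 1, LNCaP GFP replicate 2, PC3 Notch1 replicates 1 or 2 or PC3 GFP replicate 1 (log2 difference -0.88 to -0.67, adjusted p = 0.0566 to 0.108). PPP1R15A, the phosphatase subunit GADD34 that reverses eIF2 phosphorylation, had -0.33 in LNCaP (adjusted p = 0.069, and 0.0347 with the replicate block) and -0.01 in PC3 (adjusted p = 0.969).

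The enzymes of serine synthesis, PHGDH and PSPH, and SHMT2, which makes glycine from serine, did not pass the test in either line. These 3 genes, PHGDH, PSPH and SHMT2, had differences of 0.21, -0.07 and -0.16 in LNCaP and of 0.08, 0.16 and 0.15 in PC3, all with 95% intervals that included 0. A second, dimmer PSPH probe set gave -0.46 in LNCaP (95% interval -0.84 to -0.08, adjusted p = 0.0981) and 0.25 in PC3 (adjusted p = 0.382). VLDLR, a lipoprotein receptor induced under ER stress, had positive values in both lines (0.33, adjusted p = 0.278 in LNCaP and 0.37, adjusted p = 0.237 in PC3). Across the 7 targets not called between the lines, the differences between lines ranged from -0.33 to 0.24 on the probe sets that stood for them. The second PSPH probe set gave -0.71 between lines (adjusted p = 0.0776).

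Among the 10 measured ER chaperones and folding enzymes, 3 rose in PC3, 0 were called in LNCaP, and 4 differed between the lines. HSPA5, the Hsp70 chaperone BiP that holds the ER stress sensors inactive, was at 9.59 and 9.53 on the LNCaP Notch1 arrays, against 9.87 and 10.03 with GFP, and 10.49 and 10.80 on the PC3 Notch1 arrays, against 9.53 and 9.87 with GFP. Both PC3 Notch1 arrays lay above all other arrays. HSPA5 rose 1.93-fold in PC3 (log2 difference 0.95, SE 0.15, adjusted p = 0.00497), and in LNCaP had -0.39 (adjusted p = 0.12, and 0.0486 with the replicate block). The difference between lines was -1.33 (adjusted p = 0.00273). The PC3 call was lost without PC3 Notch1 replicate 2 (log2 difference 0.79, adjusted p = 0.0693).

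CALR, calreticulin, the lectin chaperone of the ER lumen, was at 9.17 and 9.10 on the LNCaP Notch1 arrays, against 9.33 and 9.43 with GFP, and 9.96 and 10.02 on the PC3 Notch1 arrays, against 9.44 and 9.46 with GFP. It rose 1.45-fold in PC3 (log2 difference 0.54, SE 0.11, adjusted p = 0.0182) and had -0.25 (adjusted p = 0.174) in LNCaP, a difference between lines of -0.79 (adjusted p = 0.00825). A second CALR probe set was also called higher in PC3 (0.74, adjusted p = 0.0028) and gave -0.20 in LNCaP. The PC3 call of the first probe set was lost without PC3 Notch1 replicates 1 or 2 or PC3 GFP replicate 1 (log2 difference 0.51 to 0.57, adjusted p = 0.083 to 0.138), after quantile normalization (0.41, adjusted p = 0.0618) and in a model of the 4 PC3 arrays alone (adjusted p = 0.0587). CANX, calnexin, its membrane-bound counterpart, was at 10.12 and 10.05 on the LNCaP Notch1 arrays, against 10.25 and 10.55 with GFP, and 10.50 and 10.52 on the PC3 Notch1 arrays, against 9.74 and 10.17 with GFP. The groups did not overlap, yet PC3 GFP replicate 2 lay nearer to the PC3 Notch1 arrays than to replicate 1.

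For CANX, -0.32 (adjusted p = 0.213) in LNCaP and 0.55 (adjusted p = 0.0671) in PC3 did not pass the test (adjusted p = 0.031 in PC3 with the replicate block), and the difference between lines did (-0.87, adjusted p = 0.0267). PDIA6, a protein disulfide isomerase, was at 9.09 and 8.88 on the LNCaP Notch1 arrays, against 9.16 and 9.31 with GFP, and 10.31 and 10.30 on the PC3 Notch1 arrays, against 9.72 and 9.94 with GFP, with -0.25 (adjusted p = 0.246) in LNCaP, 0.48 (adjusted p = 0.059) in PC3 (adjusted p = 0.0379 with the replicate block) and -0.72 (adjusted p = 0.0266) between the lines. The differences between lines of CANX and PDIA6 depended on single arrays. That of CANX was lost without LNCaP Notch1 replicates 1 or 2, LNCaP GFP replicate 2, PC3 Notch1 replicates 1 or 2 or PC3 GFP replicate 1 (log2 difference -0.91 to -0.66, adjusted p = 0.064 to 0.0944), and that of PDIA6 without LNCaP Notch1 replicate 2, LNCaP GFP replicate 2, PC3 Notch1 replicates 1 or 2 or PC3 GFP replicate 1 (log2 difference -0.73 to -0.62, adjusted p = 0.0717 to 0.0987). Both were lost after quantile normalization (-0.70 and -0.54, adjusted p = 0.0582 and 0.0612). A second, dim PDIA6 probe set gave 0.05 in LNCaP and -0.22 in PC3.

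PDIA3, the disulfide isomerase that works with calnexin and calreticulin, was at 8.76 and 8.76 on the LNCaP Notch1 arrays, against 8.46 and 8.69 with GFP, and 9.71 and 9.61 on the PC3 Notch1 arrays, against 9.06 and 9.25 with GFP. Its Notch1 arrays lay above its GFP arrays in each line. It rose in PC3 (log2 difference 0.51, SE 0.13, adjusted p = 0.0445) and had 0.19 (adjusted p = 0.391) in LNCaP, and the lines differed by -0.32 (95% interval -0.72 to 0.08). The PC3 call of PDIA3 was lost without LNCaP Notch1 replicates 1 or 2, PC3 Notch1 replicates 1 or 2 or PC3 GFP replicate 1 (log2 difference 0.41 to 0.56, adjusted p = 0.075 to 0.249) and after quantile normalization (0.41, adjusted p = 0.0886). HYOU1, the ER chaperone ORP150, had -0.25 in LNCaP and 0.23 in PC3, a difference of -0.48 (adjusted p = 0.0751, and 0.0357 with the replicate block). PDIA4 had positive values in both lines (0.15 and 0.42, the PC3 value with adjusted p = 0.0359 under the replicate block), and P4HB, the founding disulfide isomerase, negative ones (-0.36 and -0.13, with a second probe set called lower in LNCaP at -0.41, adjusted p = 0.0274). The co-chaperones DNAJB9 and DNAJC3 lay under log2 4 on all 8 arrays and were not called in either line. DNAJB9 had a difference between lines of -0.54 (adjusted p = 0.109, and 0.0441 with the replicate block).

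The 4 chaperones called between the lines, HSPA5, CALR, CANX and PDIA6, were the 4 genes whose promoters held an ERSE among the stretches shown above. Any relation of the element to these calls was not tested. CANX and PDIA6 lost that call after quantile normalization and without single arrays, as given above. Of the other 6 measured chaperones, 5 had a promoter in the table and held no ERSE in these 250 bases. PDIA3, which was called in PC3, had no promoter there. HYOU1, which was not called between the lines, held 2 matches to ERSE-II and a UPRE. In PC3 the chaperones had a median difference of 0.45, with 9 of 10 positive, and in LNCaP -0.25, with 7 of 10 negative. Over all probe sets 4810 of 12558 were positive in PC3 and 5271 of 12558 negative in LNCaP.

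HERPUD1, an ER membrane protein that works with the ubiquitin ligase of ER-associated degradation, had the largest difference between lines of the 33 genes. It was at 7.32 and 7.46 on the LNCaP Notch1 arrays, against 8.77 and 8.84 with GFP, and 7.41 and 7.56 on the PC3 Notch1 arrays, against 6.74 and 6.99 with GFP. The GFP arrays of the lines lay far apart, and the Notch1 arrays of the lines overlapped. HERPUD1 fell 2.67-fold in LNCaP (log2 difference -1.42, SE 0.13, adjusted p = 3.71e-05) and rose 1.53-fold in PC3 (log2 difference 0.62, SE 0.13, adjusted p = 0.021), and the lines differed by -2.03 (SE 0.18, adjusted p = 8.90e-05). The LNCaP call and the difference between lines held whichever array was left out. The PC3 call was lost without PC3 Notch1 replicates 1 or 2 or PC3 GFP replicate 1 (log2 difference 0.49 to 0.70, adjusted p = 0.0808 to 0.161) and in a model of the 4 PC3 arrays alone (adjusted p = 0.0585).

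SEL1L, the scaffold of the same ligase complex, was the only one of the 33 genes called higher in LNCaP. It was at 6.33 and 6.59 on the LNCaP Notch1 arrays, against 5.41 and 5.88 with GFP, and 4.80 and 4.69 on the PC3 Notch1 arrays, against 4.06 and 4.08 with GFP. The groups did not overlap in either line, and the PC3 values all lay under log2 5. SEL1L rose 1.75-fold in LNCaP (log2 difference 0.81, SE 0.16, adjusted p = 0.0055) and 1.6-fold in PC3 (log2 difference 0.68, SE 0.16, adjusted p = 0.035), and the lines differed by 0.13 (95% interval -0.37 to 0.64). The LNCaP call was lost without LNCaP Notch1 replicate 2 (log2 difference 0.68, adjusted p = 0.0628) and the PC3 call without LNCaP Notch1 replicates 1 or 2, PC3 Notch1 replicates 1 or 2 or PC3 GFP replicate 1 (log2 difference 0.62 to 0.73, adjusted p = 0.0557 to 0.208). With values under log2 5 raised to 5, the PC3 difference was 0 and the LNCaP difference was 0.81 (adjusted p = 0.0651). The 2 measured degradation genes thus differed in direction in LNCaP, where HERPUD1 fell and SEL1L rose.

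**Figure D2:**
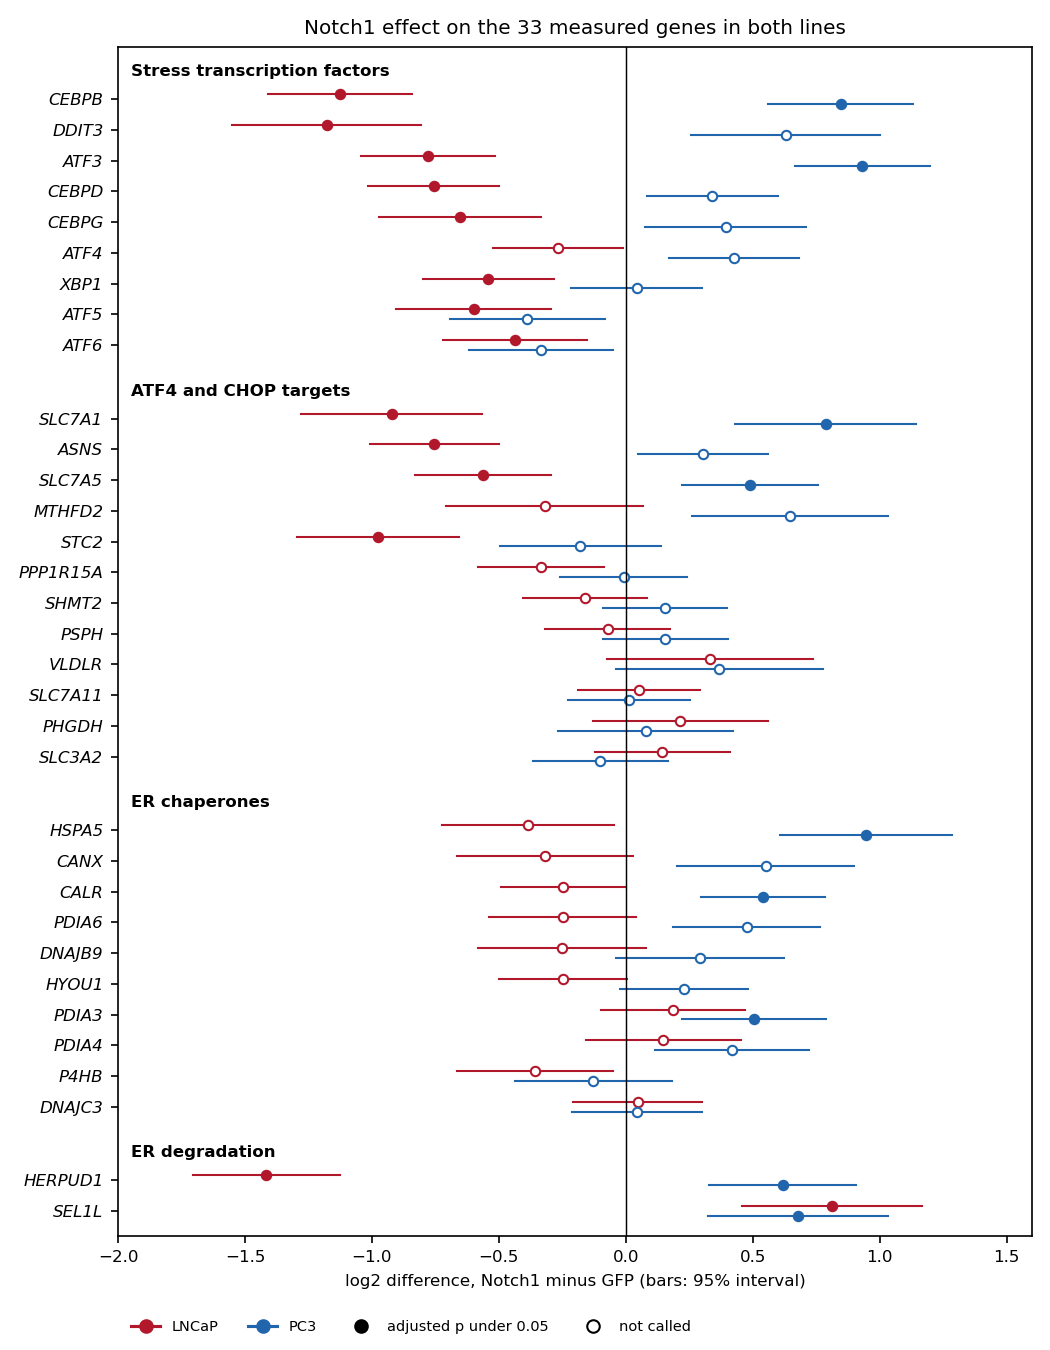
Log2 difference between Notch1 and GFP (x axis) in LNCaP and PC3 for the 33 measured genes (y axis), grouped by role and ordered within a group by the difference between lines, with 95% intervals as bars and filled points for an adjusted p under 0.05. In LNCaP 13 genes were called lower and 1 higher, and in PC3 9 were called higher and 0 lower, with 17 genes called between the lines, from HERPUD1 (-2.03) to XBP1 (-0.58).

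In LNCaP GFP against PC3 GFP, 16 of the 33 genes (48.5%) were called higher and 6 (18.2%) lower, near the shares of all probe sets, of which 40.3% were called higher and 18.5% lower. With the replicate block DDIT3 was also called higher (0.42, adjusted p = 0.00707) and MTHFD2 lower (-0.31, adjusted p = 0.0449). The median over all probe sets was 0.22 in this comparison and -0.06 after each array was centred on its median, with which 13 genes were called higher and 10 lower (3323 and 3852 of all probe sets, against 5067 and 2319 as deposited). The lines may not have been normalized together, so these levels are read with both scalings. The genes with the largest excess in LNCaP GFP were HERPUD1 (1.94), SLC7A1 (1.64) and ASNS (1.28) among those above log2 5 on all arrays, and those with the largest deficit were SLC7A5 (-1.79), P4HB (-0.64) and PDIA6 (-0.59). These 6 genes were called with either scaling. ATF3 and SEL1L lay under log2 5 on the PC3 GFP arrays, and with values raised to 5 their differences were 1.89 (adjusted p = 0.000182) and 0.65 (adjusted p = 0.0503). DNAJB9 and DNAJC3, under log2 5 on every array, are given no order. CEBPB stood at a like level in both controls as deposited (-0.06, adjusted p = 0.73) and was called lower in LNCaP GFP after median centring. PSPH was lower in LNCaP GFP (-0.39) on its brighter probe set and higher on another (1.34), and was called higher with their mean, so its direction is uncertain.

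Other genes of the pathway were taken as 5 lists of 86 genes, of which 56 were measured. In LNCaP 13 of the 56 fell (23.2%, beside 9.32% of all probe sets) and 4 rose (7.14%, beside 8.01%). In PC3 2 fell (3.57%, beside 2.01%) and 1 rose (1.79%, beside 4.19%). The replicate block gave 19 falls and 5 rises in LNCaP and 3 falls and 6 rises in PC3. The falls in LNCaP became 7 without LNCaP GFP replicate 2, 8 without LNCaP Notch1 replicate 2 and 8 with values under log2 5 raised to 5. The rises in LNCaP became 1 without LNCaP Notch1 replicate 1, and 2 without any one of the other LNCaP arrays, without either PC3 Notch1 array and after median centring. Those in PC3 ranged between 0 and 6 over the alternatives. The 10 cytosolic tRNA synthetases, several of which are ATF4 targets, were all lower by value in LNCaP, with a median of -0.43, and 5 passed the test. They were led by TARS1 (-0.94, adjusted p = 0.00232), GARS1 (-0.61, adjusted p = 0.0154) and EPRS1 (-0.52, adjusted p = 0.0122), the synthetases for threonine, glycine, and glutamate and proline. In PC3 their median was 0.11 and 0 were called. The difference between lines was called for TARS1 (-1.03, adjusted p = 0.0136) and GARS1 (-0.97, adjusted p = 0.0116), and for neither without PC3 Notch1 replicate 2 or with values under log2 5 raised to 5. That of TARS1 was also lost without LNCaP Notch1 replicate 2, and that of GARS1 without LNCaP Notch1 replicate 1. With the replicate block 4 synthetases were called between lines, 7 lower in LNCaP, and 1 lower and 1 higher in PC3. The 5 LNCaP calls became 1 (without LNCaP GFP replicate 2) to 7 under the alternatives, with that of TARS1 called in all of them.

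Of 12 further ATF4 and CHOP targets, 5 fell in LNCaP, with a median of -0.34. CBS, which makes cystathionine from homocysteine, was at 7.27 and 7.02 on the LNCaP Notch1 arrays, against 7.95 and 8.07 on the LNCaP GFP arrays (-0.87, adjusted p = 0.00075). PYCR1, the last enzyme of proline synthesis, was at 9.73 and 9.47 on the LNCaP Notch1 arrays, against 10.46 and 10.24 on the LNCaP GFP arrays (-0.75, adjusted p = 0.00313). Neither was called in PC3 (0.19 and -0.09). GDF15, a secreted stress cytokine, departed from the opposite pattern and fell in both lines, at 12.19 and 12.01 on the LNCaP Notch1 arrays, against 13.07 and 12.99 with GFP, and 9.38 and 9.35 on the PC3 Notch1 arrays, against 10.96 and 10.72 with GFP (-0.93, adjusted p = 0.000552 in LNCaP and -1.48, adjusted p = 6.17e-05 in PC3). DDIT4, the inhibitor of mTORC1 known as REDD1, named because it was the only one of these 12 genes called higher in PC3, fell in LNCaP (-0.65, adjusted p = 0.014) and rose in PC3 (0.61, adjusted p = 0.0435). Its PC3 call was lost in 9 of 16 alternatives and its LNCaP call in 5.

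The upstream sensors and the remaining ER proteins showed mixed directions. Of 7 sensors and kinases measured, EIF2S1, the eIF2 subunit that the stress kinases phosphorylate, fell in LNCaP (-0.57, adjusted p = 0.00497), and NFE2L2, the oxidative stress factor NRF2, rose (0.45, adjusted p = 0.0356), a call lost in 8 of 16 alternatives. Each is 14.3% of the list, beside 9.32% lower and 8.01% higher over all probe sets. In PC3 and between the lines 0 of the 7 were called, and 1 was called higher in each with the replicate block. Among 9 other folding proteins, QSOX1, which forms disulfide bonds in secreted proteins, was at 8.99 and 8.75 on the LNCaP Notch1 arrays, against 6.97 and 7.04 on the LNCaP GFP arrays. It rose 3.64-fold in LNCaP (log2 difference 1.86, SE 0.13, adjusted p = 4.93e-06), with 0.40 (adjusted p = 0.09) in PC3 and 1.47 (adjusted p = 0.000501) between the lines. This change ran against the fall of the listed genes in LNCaP. CALU, calumenin, rose in LNCaP (0.43, adjusted p = 0.0404, a call lost in 9 of 16 alternatives), and CLGN, calmegin, fell in PC3 (-0.81, adjusted p = 0.0289, lost in 8 of 16).

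Among 18 other proteins of ER degradation and translocation, 2 fell (11.1%) and 1 rose (5.56%) in LNCaP, near the shares of all probe sets, and 0 were called in PC3. With the replicate block 3 fell and 2 rose in LNCaP, 2 rose in PC3 and 4 were called lower between lines, where 2 were without it. UBE2G2, the ubiquitin-conjugating enzyme that acts in the same degradation pathway as HERPUD1, was at 8.42 and 8.36 on the LNCaP Notch1 arrays, against 9.16 and 9.13 on the LNCaP GFP arrays (-0.75, adjusted p = 0.00111), with 0.25 (adjusted p = 0.21) in PC3 and -1.0 (adjusted p = 0.00271) between the lines. It thus moved in the direction of HERPUD1 in LNCaP. SEC63, a translocation protein, fell in LNCaP (-0.70, adjusted p = 0.0232, lost in 4 of 16 alternatives), and SSR1, a subunit of the translocon-associated complex, rose (0.57, adjusted p = 0.00782, lost in 1 of 16). The median of the 18 genes was -0.08 in LNCaP and 0.12 in PC3.

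**Figure D3:**
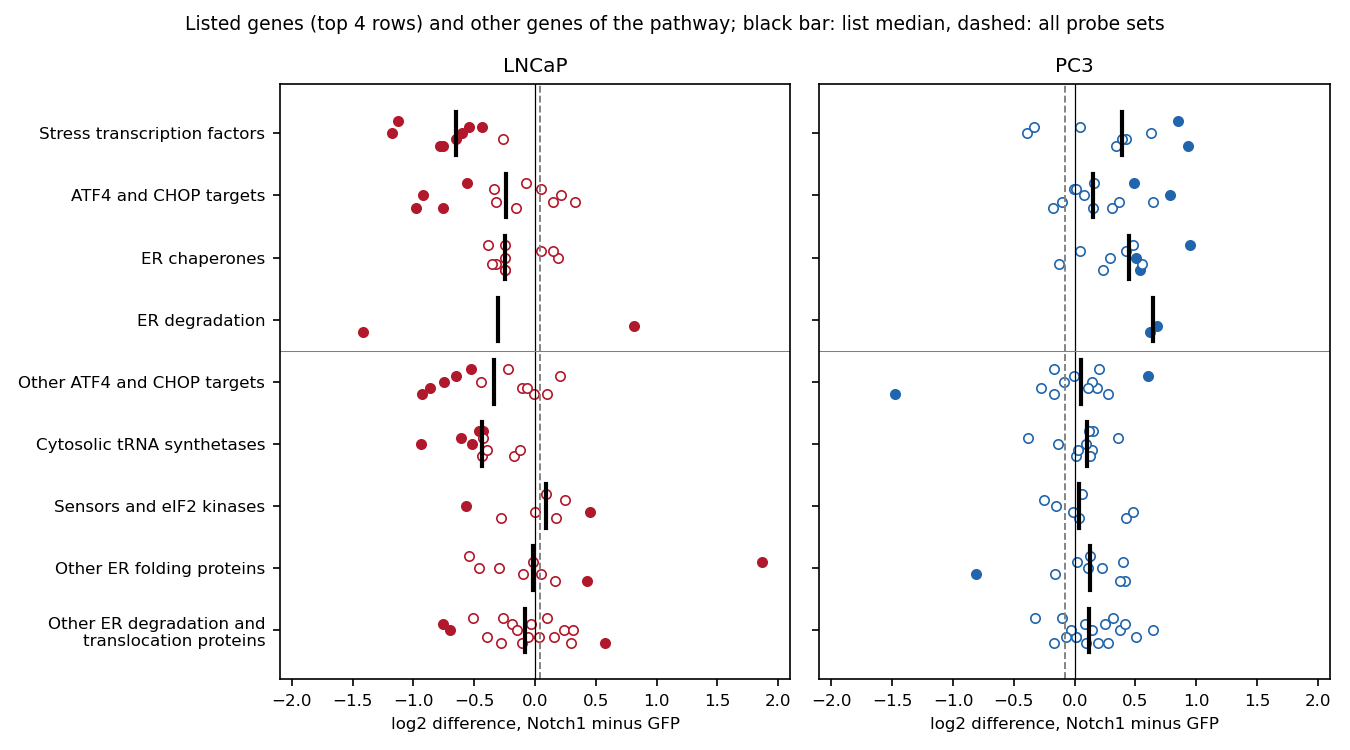
Log2 difference between Notch1 and GFP (x axis) for each gene of the 4 groups of listed genes and of the 5 lists of other pathway genes (y axis) in LNCaP (left) and PC3 (right). Filled points passed an adjusted p of 0.05, black bars are list medians and the dashed line is the median of all probe sets (0.04 and -0.08). Stress factors and tRNA synthetases had medians of -0.65 and -0.43 in LNCaP, against 0.39 and 0.11 in PC3.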

How the data were processed

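Expression was measured on 8 Affymetrix U95Av2 arrays of LNCaP and PC3 cells with activated Notch1 or GFP, 2 arrays in each of 4 groups, which were assigned from the sample labels. Per the methods, the authors processed raw array files in R with RMA (background correction, normalization between arrays and 1 value per probe set) and applied limma. The sources used here give no versions. The deposited values are log2 expression values for each probe set on each array, unpooled, and were used as they stood. Whether both lines were normalized together is not stated, and median values of 6.28 to 6.36 on LNCaP arrays and 5.95 to 6.01 on PC3 arrays limit comparisons of levels between lines.

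Of 12625 probe sets, 67 controls were left out and 12558 tested. A linear model with a mean for each group was fitted to all 8 arrays with limma 3.58.1 in R 4.3.3 (4 residual and 6.37 prior degrees of freedom), and checked on simulated data first. Contrasts were Notch1 minus GFP in each line, the difference of these effects (LNCaP minus PC3), and the GFP controls of LNCaP minus those of PC3. Tests were two-sided, p-values were Benjamini-Hochberg adjusted over all tested probe sets, and a value under 0.05 was called. The arrays' number limits the precision. Symbols came from the platform annotation, which gave 10943 probe sets 1 symbol, 545 several and 1070 none. The members and lists were chosen with earlier results of these data known. All measured members could be named, values on every array are given for called members, and of the other pathway lists up to 3 called genes with the largest change were named, with the identity genes of both lines.

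Same-numbered replicates deviated together from their group means (r = 0.124 to 0.545 in 6 pairs of groups), but the meaning of the numbers is not stated. The model behind the reported calls did not use the numbers. An alternative model treated them as a pairing (the replicate block). Its values are printed where they alter a call of a listed gene or a count over a list. Other alternatives were median centring, quantile normalization, a filter on the dimmest 25% of probe sets, values under log2 5 raised to 5, averaging the probe sets of a gene, an intensity trend, the 4 arrays of a line alone, and leaving out each array, where the lone array of a group is assumed to vary like the other groups. Promoters from RefSeq (GRCh38.p14) were searched for exact matches.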

Additional observations from a re-analysis of the deposited data

Results flagged for a closer look

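The Notch1 effect in LNCaP and in PC3 differed by the test of the difference itself for 17 of the 33 genes, with a lower effect in LNCaP for each. Among the stress factors these log2 differences between the effects were CEBPB (-1.97, adjusted p = 9.78e-05), DDIT3 (-1.81, adjusted p = 0.000853), ATF3 (-1.71, adjusted p = 0.000139), CEBPD (-1.10, adjusted p = 0.00184), CEBPG (-1.05, adjusted p = 0.00725), ATF4 (-0.69, adjusted p = 0.0193) and XBP1 (-0.58, adjusted p = 0.0402). Among the ATF4 and CHOP targets they were SLC7A1 (-1.71, adjusted p = 0.000935), ASNS (-1.06, adjusted p = 0.00206), SLC7A5 (-1.05, adjusted p = 0.00273), MTHFD2 (-0.97, adjusted p = 0.027) and STC2 (-0.80, adjusted p = 0.0267). Among the ER chaperones they were HSPA5 (-1.33, adjusted p = 0.00273), CANX (-0.87, adjusted p = 0.0267), CALR (-0.79, adjusted p = 0.00825) and PDIA6 (-0.72, adjusted p = 0.0266), and for the degradation protein HERPUD1 the value was -2.03 (adjusted p = 8.90e-05). The calls of 11 of the 17 genes (HERPUD1, CEBPB, DDIT3, ATF3, SLC7A1, HSPA5, CEBPD, ASNS, SLC7A5, CEBPG and CALR) were kept whichever array was left out, and those of the other 6 were lost without at least 1. Groups of 2 arrays are too small for a test of single outlying arrays.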

How the results depend on the processing

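The direction of each member's difference that was called in any fit was the same under every alternative run, with the following exceptions. With values under log2 5 raised to 5, SEL1L in PC3, DNAJB9 between lines and DNAJB9 and DNAJC3 between the GFP controls became 0. Between the GFP controls, PSPH, called lower in LNCaP, was called higher with the mean of its probe sets (0.47, adjusted p = 0.00564), since they disagree. Also there, HSPA5 was at -0.029 after median centring (not called), and CEBPB, not called as deposited, ranged between -0.147 and 0.036 with 1 array left out, positive without PC3 GFP replicate 2. Of genes called higher in PC3, 9 as reported, 2 were called with that floor, 5 with the 4 PC3 arrays alone, 14 with an intensity trend, 16 with the replicate block and 2 to 13 with 1 array left out. The floor ended the calls of ATF3, SLC7A1, SLC7A5, HSPA5, PDIA3, HERPUD1 and SEL1L in PC3, of ATF5, ATF6, CEBPG, SLC7A1 and SEL1L in LNCaP, and of CEBPG, MTHFD2, STC2, PDIA6 and CANX between lines. Quantile normalization and the 4 PC3 arrays alone each ended those of SLC7A5, PDIA3 and CALR in PC3. The 4 PC3 arrays alone also ended that of HERPUD1 in PC3, and averaging probe sets ended that of PDIA6 between lines. The floor lowered the prior degrees of freedom from 6.37 to 0.386, so that spread was estimated almost gene by gene. In LNCaP, 1 gene was called higher, 0 with the floor and 0 to 1 with 1 array left out (0 without LNCaP Notch1 replicate 2), and 13 were called lower, 10 to 13 with 1 array left out. Differences between lines were called negative for 17 genes, and for 11 to 17 with 1 array left out. In LNCaP GFP against PC3 GFP, 6 genes were called lower, 10 after median centring and 5 to 7 with 1 array left out, and 16 were called higher, 15 to 16 with 1 array left out. Genes called positive between lines, or lower in PC3, numbered 0 throughout. Over all probe sets, calls of 815 positive and 963 negative differences between lines became 549 and 1255 after median centring. The replicate block added calls of ATF4, CEBPG, DDIT3, MTHFD2, PDIA4, PDIA6 and CANX in PC3, PPP1R15A and HSPA5 in LNCaP, and DNAJB9 and HYOU1 between lines, and DDIT3 (higher) and MTHFD2 (lower) in LNCaP GFP against PC3 GFP, where 17 genes were then called higher and 7 lower. It ended no call of these genes and changed no direction. Other alternatives also called some of these. In PC3, ATF4 and DDIT3 were called with median centring, the filter, averaged probe sets and the intensity trend. MTHFD2 and PDIA6 were called with all of these but averaging, and CANX with the trend. In LNCaP, PPP1R15A was called with median centring, quantile normalization, the filter and the floor, and CALR with the floor (-0.25, adjusted p = 0.0399). HYOU1 was called between lines with median centring, the floor and the trend. Values under log2 5 (ATF3 in PC3 GFP, SEL1L in PC3, DNAJB9 and DNAJC3) lie near the array background, and their differences are less certain than their errors state.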
